A study of Mus musculus with 24 samples.

Results

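The genes described here encode subunits of the mitochondrial oxidative phosphorylation machinery. They are the rows of a mouse read-count table whose symbols begin with Nduf followed by a, b, c, s or v and a number, equal Sdha to Sdhd, or begin with Uqcr, Cox4 to Cox8 or Atp5. This gave 84 of 21669 genes: 37 of complex I, 4 of complex II, 8 of complex III, 18 of complex IV and 17 of the ATP synthase. The pattern does not match Ndufab1 or Cyc1 (cytochrome c1, a subunit of complex III), and the subunits encoded in mitochondrial DNA were not analysed here. Atp5s, Atp5sl, Cox7a2l and Ndufa4l2 match by name but are not regular structural subunits of the complex their symbol names. Ndufa4 is counted with complex I by its symbol, although its protein is now placed with complex IV.

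RNA came from 2 lines, K-Luc and RAW-Blue. K-Luc is a glioma line of C57BL/6 origin, KR158B cells that express luciferase, and RAW-Blue is a macrophage line, RAW 264.7, that carries a SEAP reporter of AP-1 and NF-kB activity. Cells were given single-walled carbon nanotubes dispersed in CpG-28, an oligonucleotide (SWNT/CpG, 10 µg/mL each), CpG-28 and lipid-PEG nanotubes as unjoined agents (CpG+SWNT/LP, 10 µg/mL of each ingredient), CpG-28 alone (CpG, 10 µg/mL), nanotubes in lipid-PEG (SWNT/LP, 10 µg/mL each), or water (untreated). Cells had adhered for 24 h and were treated for 17 to 19 h (K-Luc) or 47 to 50 h (RAW-Blue) in an assay of migration. K-Luc had 2 untreated libraries and 3 in every other group, and RAW-Blue had 2 per group. No group received an oligonucleotide without CpG. The labels do not say whether replicates were separate cultures, so p-values measure only the spread between these samples, which may be technical.

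Oxidative phosphorylation takes electrons from NADH at complex I and from succinate at complex II, passes them through ubiquinone to complex III and by cytochrome c to complex IV, where oxygen is reduced. The proton gradient built by complexes I, III and IV drives the ATP synthase. Almost all subunits are encoded in the nucleus, and several complex IV subunits exist as isoforms used in different tissues. In macrophages, signals from Toll-like receptors, among them the CpG receptor TLR9, are known to move metabolism toward glycolysis, while nitric oxide and itaconate act on the respiratory chain. Many promoters of these genes are known to be bound by the nuclear respiratory factors NRF1 and GABP.

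Promoters are shown for 4 of the members named below. They do not stand for the members as a whole, since motif matches are more frequent among them than among all members with a promoter. Ndufa5, Cox7a2, Uqcr10 and Atp5g3, which fell more in K-Luc than Sdhd, are not shown. Atp5k (subunit e of the ATP synthase) and Sdhd (a membrane anchor of complex II) fell in K-Luc. Uqcrh (the hinge protein of complex III) fell in both lines. Ndufv3 (an accessory subunit next to the NADH site of complex I) had calls of opposite signs in the 2 lines. Each sequence is the 250 bases before the RefSeq gene start in GRCm38.p6, 5′ to 3′ on the gene's strand. Capitals mark a motif found by letter search.
Atp5k, minus strand, chr5:108434400-108434649: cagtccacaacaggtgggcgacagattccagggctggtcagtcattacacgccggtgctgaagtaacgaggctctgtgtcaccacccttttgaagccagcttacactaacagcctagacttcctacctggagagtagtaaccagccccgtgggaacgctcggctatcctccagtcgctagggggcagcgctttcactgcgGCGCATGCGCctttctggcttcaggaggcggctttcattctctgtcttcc
Sdhd, minus strand, chr9:50603850-50604099: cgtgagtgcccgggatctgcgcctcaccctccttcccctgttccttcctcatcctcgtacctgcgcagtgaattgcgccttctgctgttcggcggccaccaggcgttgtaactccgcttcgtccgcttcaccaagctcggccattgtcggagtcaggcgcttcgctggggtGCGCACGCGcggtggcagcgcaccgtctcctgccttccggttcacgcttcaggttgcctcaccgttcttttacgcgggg
Uqcrh, minus strand, chr4:116075071-116075320: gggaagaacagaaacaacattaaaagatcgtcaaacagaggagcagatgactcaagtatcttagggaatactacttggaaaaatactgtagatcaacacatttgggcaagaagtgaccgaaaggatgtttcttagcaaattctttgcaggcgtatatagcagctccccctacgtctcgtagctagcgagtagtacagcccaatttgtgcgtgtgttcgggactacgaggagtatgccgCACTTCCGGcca
Ndufv3, plus strand, chr17:31519865-31520114: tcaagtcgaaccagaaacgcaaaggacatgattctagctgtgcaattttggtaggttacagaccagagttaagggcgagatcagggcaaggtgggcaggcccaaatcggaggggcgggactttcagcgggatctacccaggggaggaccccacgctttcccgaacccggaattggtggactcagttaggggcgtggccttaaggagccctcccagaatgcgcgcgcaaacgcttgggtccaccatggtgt
The capitals in Atp5k and Sdhd are the NRF1 letters GCGCATGCG or GCGCACGCG (in Atp5k a match on each strand, overlapping), and those in Uqcrh are the GABP letters CCGGAAGTG on the other strand. All 84 members were matched to RefSeq and 69 have such a window. On both strands, the NRF1 letters lay in 8 of the 69 (11.6%: Atp5g2, Atp5k, Atp5l, Cox6a1, Ndufa8, Ndufa11, Ndufb4 and Sdhd), against 3.87% of 17486 protein-coding genes. The GABP letters lay in 1.45% of the members (Uqcrh alone) and 1.92% of all genes, the YY1 letters AAGATGGCG in 0 of 69 members and 0.698% of all genes, and TATAAA in 8.70% and 12.4%. No pattern contains that of another factor, and a match is a description of letters only. The windows come from a later build than the mm9 used for the counts.

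Total counts ran from 13.3 to 24.1 M per library. The libraries fitted their line labels: 10 macrophage markers summed to 4946 to 5702 CPM (counts scaled to library size) in RAW-Blue libraries and to 11.1 to 16.5 CPM in K-Luc libraries. Of 11 glioma and glial markers K-Luc had 6 or 7 above 1 CPM (sums of 5894 to 6923 CPM), with Olig2 at 0 throughout. This list parts the lines less, since RAW-Blue had 3 above 1 CPM and sums of 2038 to 2697 CPM. K-Luc also had sums of 446 to 865 CPM over 8 fibroblast and vessel markers. The 2 untreated RAW-Blue libraries stood apart from one another: chi-square per degree of freedom over genes was 43.2 between them, against 1.95 to 14.5 for every other replicate pair. The members took 1.23% of counts in untreated RAW-Blue replicate 1 and 0.983% in replicate 2, against 0.931% to 1.02% in the treated RAW-Blue libraries. The same 2 libraries differed by transcript length. With each doubling of relative length, the level relative to the line's mean changed by -0.090 log2 CPM in replicate 1 and by 0.045 in replicate 2, while the other RAW-Blue libraries lay between -0.007 and 0.022. Members are short, with a median relative length of 0.216 in K-Luc and 0.229 in RAW-Blue, where 1 is the median tested gene. RAW-Blue results for the members are therefore given against both untreated libraries and against each alone. Other gene lists were set against both together only.

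Between genes, levels are given per length, as the authors' deposited RPKM. In untreated RAW-Blue the ATP synthase catalytic subunit Atp5b had 668 and 490.5 RPKM, and in untreated K-Luc 443.9 and 456.4 RPKM, the highest member in each line. Cox4i1, the ubiquitous isoform of complex IV subunit 4, was next with a mean of 370 RPKM in RAW-Blue and 270.3 RPKM in K-Luc. The median member RPKM in untreated RAW-Blue was 45.5 for complex I, 92.2 for complex II, 103 for complex III, 38.9 for complex IV and 67.9 for the ATP synthase, and in untreated K-Luc 40.8, 63.4, 52.1, 31.2 and 54.5. Tissue-restricted isoforms were lowest. Cox8b and Cox8c were at 0 RPKM in the untreated libraries of both lines, and Cox6b2, Cox7b2 and Ndufa4l2 averaged at most 0.05 RPKM. Cox7c, Atp5l, Atp5g1 and Atp5g2 were also at 0.45 to 1.65 RPKM, and each has processed copies in the genome that match it over at least 90 bases (Atp5l has 9 copies, the best 100% identical). Counts of the 21 members with such a copy of at least 95% identity are uncertain, since reads could have been split between copies. Among genes named in the results, these also include Atp5f1 (98.7% identical over 696 bases), Atp5k, Atp5o, Cox7a2l, Ndufa12 and Ndufb11.

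Many subunit transcripts were lower in K-Luc cells given SWNT/CpG, by small amounts. Relative to untreated cells, 38 of the 78 members tested fell and none rose (edgeR, adjusted p under 0.05), or 48.7%, where 21.3% of all tested genes were called lower and 21.8% higher. The members' median log2 fold change was -0.15, against 0.01 over all tested genes. The fold changes of called members ran from 0.769 to 0.922. Without adjustment 45 of the 78 members had a p under 0.05, as did 6254 of all 12420 tested genes. DESeq2 called 30 members lower and 0 higher, and its share over all genes is not given here. In bulk RNA, fewer cells that make a transcript and less of it per cell cannot be told apart.

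**Figure D1:**
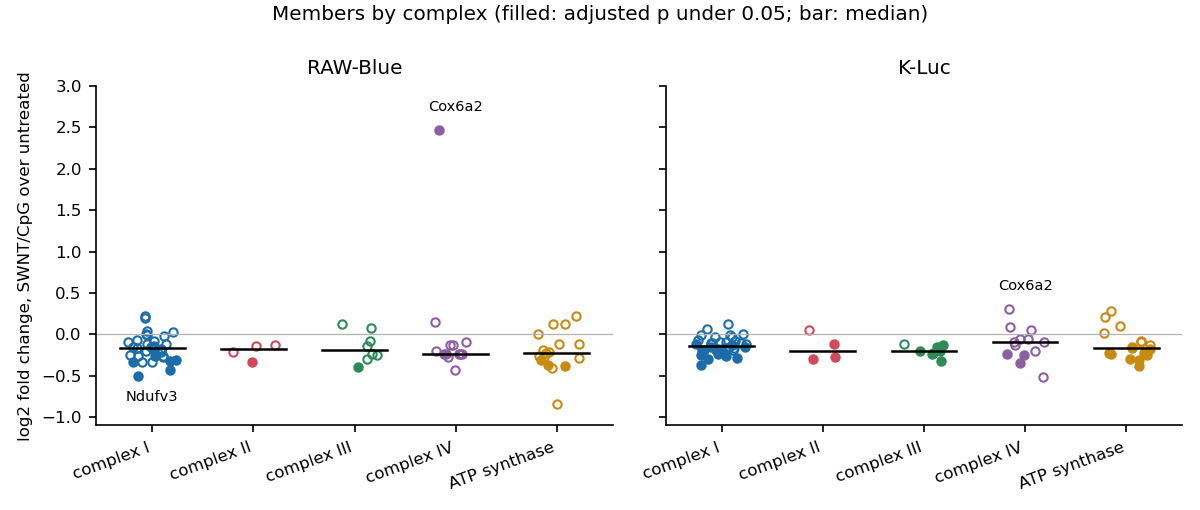
Each point is 1 oxidative phosphorylation gene, placed by complex (horizontal axis) and by its log2 fold change in SWNT/CpG against untreated cells (vertical axis), in RAW-Blue and K-Luc; filled points passed the edgeR test. In K-Luc all 38 filled points lie below 0, while in RAW-Blue 12 lie below 0 and Cox6a2 stands alone at 2.47.

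By complex, the K-Luc falls were spread unevenly. Complex III had 7 of 8 members lower (median log2 fold change -0.20), complex II 3 of 4 (-0.20), the ATP synthase 9 of 17 (-0.16), complex I 16 of 36 (-0.14) and complex IV 3 of 13 (-0.09). No test compared the complexes with each other. Complex IV (Cox7a1, Cox7c, Cox6a2) and the ATP synthase (Atp5l, Atp5g2) include members near the floor, which could hardly be called. Their mean log2 CPM was -1.06 to -0.34 and their SE 0.43 to 0.57.

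In complex I, Ndufa5, an accessory subunit of the matrix arm, had 26.5, 27.7 and 30.1 CPM in SWNT/CpG cells against 33.5 and 38.6 CPM in untreated cells. The groups did not overlap, and the log2 fold change was -0.38 ± 0.07 (SE; adjusted p = 0.000654). Ndufc1 changed by -0.30 ± 0.09 (adjusted p = 0.00986). Among the core subunits that carry electrons, the log2 fold change was -0.19 for Ndufs1, an iron-sulfur subunit, and -0.12 for Ndufv1, which binds NADH (adjusted p = 0.00766 and 0.0441). Ndufa4 had a log2 fold change of -0.23 (adjusted p = 0.00174).

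Complex II, succinate dehydrogenase, also belongs to the citric acid cycle. Sdhd had 92.1, 97.5 and 90.8 CPM in SWNT/CpG cells against 113 and 118 CPM in untreated cells, a log2 fold change of -0.30 ± 0.05 (adjusted p = 0.000166). The iron-sulfur subunit Sdhb had 84.3, 89.4 and 87.9 CPM against 101 and 110 CPM (log2 fold change -0.28 ± 0.05, adjusted p = 0.000585). All treated libraries lay below both untreated ones for each gene. The flavoprotein Sdha fell less (log2 fold change -0.12 ± 0.04, adjusted p = 0.0242), and the other anchor, Sdhc, did not pass (0.05 ± 0.06, adjusted p = 0.526).

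In complex III, the small subunit Uqcr10 had 47.5, 45.0 and 47.0 CPM in SWNT/CpG cells against 55.1 and 60.8 CPM in untreated cells (log2 fold change -0.32 ± 0.07, adjusted p = 0.00105). Uqcrh had 73.3, 88.1 and 88.4 CPM against 96.1 and 100 CPM (log2 fold change -0.24 ± 0.07, adjusted p = 0.00916). The Rieske iron-sulfur protein Uqcrfs1 fell by 0.15 on the log2 scale (adjusted p = 0.0239). The only member of complex III that did not pass was the core protein Uqcrc1, with a log2 fold change of -0.12 and an adjusted p of 0.0504.

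In complex IV, Cox7a2, the widely used isoform of subunit 7A, had 78.9, 81.0 and 81.4 CPM in SWNT/CpG cells against 98.7 and 106 CPM in untreated cells (log2 fold change -0.35 ± 0.06, adjusted p = 0.000130). Cox8a had 90.6, 116 and 116 CPM against 104 and 145 CPM. These groups overlapped, and the lowest library of each is from run 1; with run in the model the log2 fold change was -0.26 ± 0.06 (adjusted p = 0.00144). Cox5a was the remaining complex IV gene called (log2 fold change -0.24, adjusted p = 0.00304). Cox4i1 and Cox6a1 had log2 fold changes of -0.05 each (adjusted p = 0.332 and 0.353), and Cox7a2l, a factor of respiratory supercomplexes, 0.09 (adjusted p = 0.211).

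In the ATP synthase, Atp5k had 16.8, 18.9 and 19.2 CPM in SWNT/CpG cells against 21.2 and 25.6 CPM in untreated cells (log2 fold change -0.38 ± 0.08, adjusted p = 0.00120). Atp5g3, which encodes the c subunit of the rotating ring, had 183, 192 and 190 CPM against 229 and 237 CPM (log2 fold change -0.31 ± 0.05, adjusted p = 7.53e-05). The treated libraries of both genes lay below both untreated ones. The subunits of the catalytic head, Atp5b and Atp5a1, fell by 0.25 and 0.22 on the log2 scale (adjusted p = 0.000147 and 0.000502).

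The K-Luc count rests on few untreated libraries. It was 12 without untreated replicate 2 and 22 without SWNT/CpG replicate 1. In run 2 alone, which holds 1 untreated and 2 SWNT/CpG libraries, 19 members were called, and without a run term 24. Transcript length moved with the result: tested genes were put into 4 equal classes by length, and 27.4% of the shortest class were called lower in SWNT/CpG cells, against 18.1% of the longest, while 33 of the 70 members in the shortest class (47.1%) were called lower. After the trend of fold change with length over all genes was removed, 13 of the 38 calls remained and 1 member was called higher. The members' median log2 fold change was then -0.06. For the counts under these alternatives, the share of all genes called is not given here. A loss of calls among the members can thus not be set beside that among all genes.

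**Figure D2:**
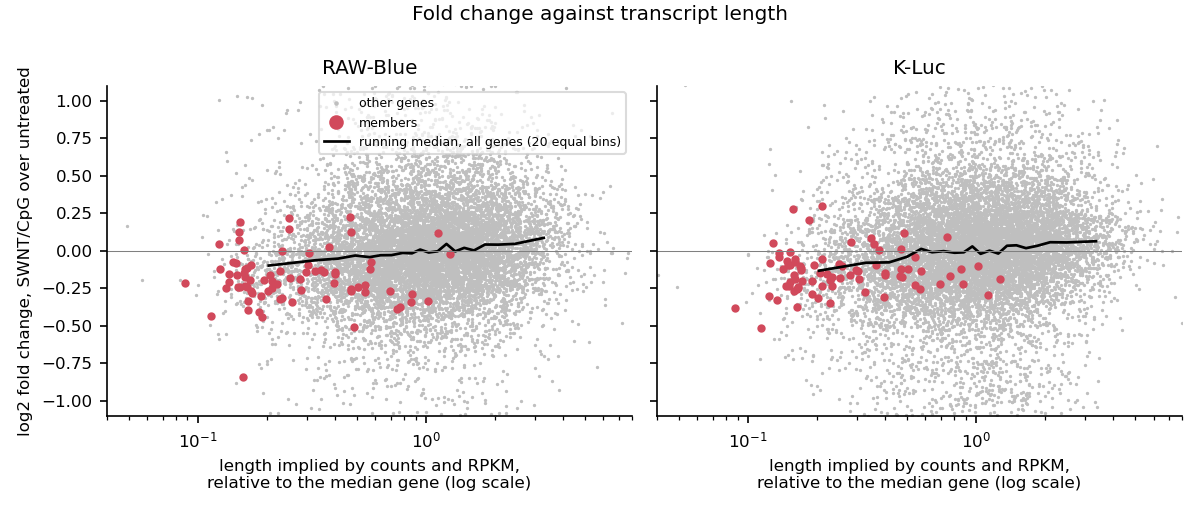
Log2 fold change of SWNT/CpG against untreated cells (vertical axis) by transcript length relative to the median tested gene (horizontal axis, log scale), in RAW-Blue and K-Luc; coloured points are the oxidative phosphorylation genes, grey points all other genes with a length, and lines the medians of 20 equal bins of them. Members lie at the short end, at a median relative length of 0.216 in K-Luc, where the medians of all genes are below 0; genes beyond ±1.1, Cox6a2 in RAW-Blue among them, lie outside the axis.

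The agents without joining gave smaller counts of the same kind. These comparisons share the untreated libraries, so their counts stand side by side only. CpG+SWNT/LP had 24 members lower and 1 higher in K-Luc (all tested genes 17.8% lower, 16.1% higher; median member log2 fold change -0.11), and CpG alone had 22 lower and 1 higher (18.4% and 17.9%; -0.12). SWNT/LP had 0 called in either direction, where 0.0403% of all genes were lower and 0.0886% higher. By edgeR 9 of 78 members had an unadjusted p under 0.05, as did 538 of 12420 genes, and DESeq2 called 0 members. The median member log2 fold change under SWNT/LP was -0.06. Untreated replicate 1 is of run 1, and all CpG and SWNT/LP libraries are of run 2. With replicate 1 as the only untreated library, CpG is set against untreated cells only through the run term. Untreated replicate 2 mattered here too: without it 5 members were called for CpG+SWNT/LP and 4 for CpG, and without untreated replicate 1, 16 for CpG+SWNT/LP. In run 2 alone 8 members were called for CpG+SWNT/LP and 13 for CpG. With the length trend removed, 11 of 24 and 10 of 22 lower calls remained.

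Single genes show the levels. Cox7a2 had 78.9 to 81.4 CPM under SWNT/CpG, 82.3 to 87.6 CPM under CpG+SWNT/LP, 83.2 to 86.8 CPM under CpG, 89.2 to 102 CPM under SWNT/LP and 98.7 and 106 CPM untreated. Sdhd had 90.8 to 97.5 CPM under SWNT/CpG, 94.6 to 99.3 CPM under CpG+SWNT/LP, 94.9 to 99.8 CPM under CpG, 109 to 121 CPM under SWNT/LP and 113 and 118 CPM untreated. The 3 groups given CpG-28 thus overlapped one another in Sdhd, and all of them lay below the SWNT/LP and untreated libraries. Set directly against CpG+SWNT/LP, SWNT/CpG had 1 member lower and 0 higher, where 9.12% and 8.54% of all genes were called. That member was Cox8a, with a log2 fold change of -0.18 ± 0.05 (adjusted p = 0.0160).

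The effect of CpG-28 was also read in the presence of nanotubes, a comparison that uses no library of CpG against untreated. In K-Luc, CpG+SWNT/LP against SWNT/LP had 11 members lower (14.1%) and 1 higher (1.28%), beside 15.8% and 15% of all genes. The share of members lower was thus under that of all genes. The median member log2 fold change was -0.07, against -0.0004 over all genes. The 1 member higher was Atp5s (log2 fold change 0.32, adjusted p = 0.0175). Of these 11, 10 were also lower in CpG against untreated, which is 90.9% of the 11 and 45.5% of the 22 there. Over all genes called lower, the matching shares were 80.0% and 68.7%. Sdhd had a log2 fold change of -0.22 ± 0.05 in this comparison and of -0.28 ± 0.05 in CpG against untreated.

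Against untreated cells, the 1 member called higher in K-Luc was Ndufv3, under CpG+SWNT/LP and under CpG. Ndufv3 had 45.8, 42.3 and 42.3 CPM in K-Luc CpG+SWNT/LP cells and 44.0, 42.6 and 41.5 CPM in CpG cells, against 38.6 and 36.5 CPM in untreated cells. Every library of both groups lay above the untreated ones, and the log2 fold changes were 0.22 ± 0.06 (adjusted p = 0.0130) and 0.23 ± 0.07 (adjusted p = 0.0158). In SWNT/CpG cells it had 40.3, 41.6 and 38.4 CPM, which touches the untreated range (log2 fold change 0.12 ± 0.06, adjusted p = 0.149).

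**Figure D3:**
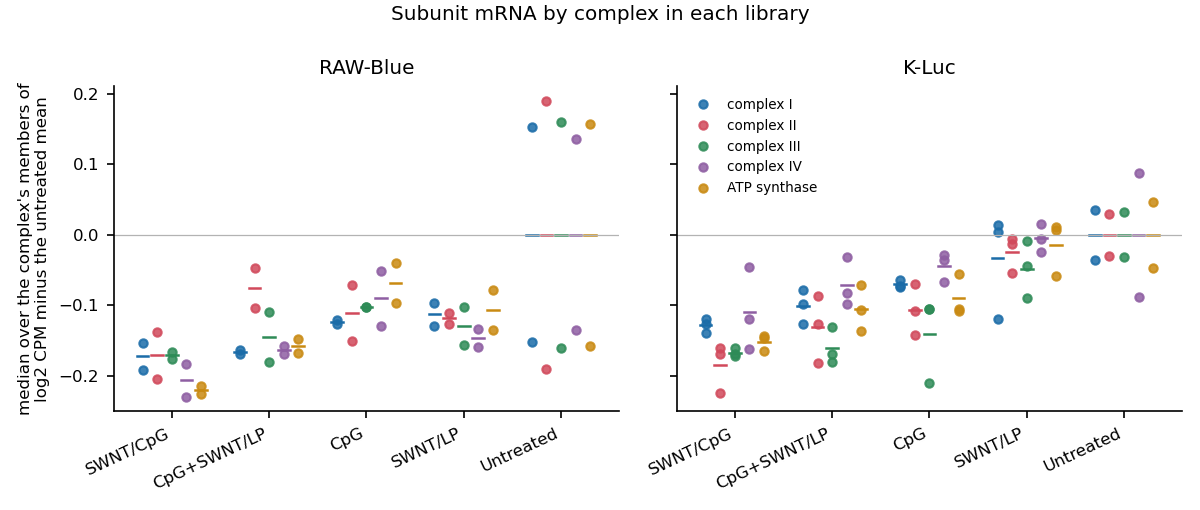
Median over the members of each complex of log2 CPM minus the mean of the untreated libraries (vertical axis), for each library of the 5 groups (horizontal axis) in RAW-Blue and K-Luc; each point is 1 library and short lines are group means. In K-Luc the SWNT/CpG libraries have complex I values of -0.12 to -0.14, a range that 1 CpG+SWNT/LP library enters at -0.13, and in RAW-Blue the untreated libraries lie far apart, at 0.15 and -0.15 for complex I.

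Other mitochondrial gene lists in K-Luc under SWNT/CpG are read beside the 21.3% of all tested genes called lower and the 21.8% called higher. Of the nuclear genes for mitochondrial ribosomal proteins, 49 of 74 fell (66.2%) and 0 rose (median log2 fold change -0.26). Of genes for protein import, chaperones and proteases 20 of 31 fell (64.5%; median -0.24), among them the outer membrane pore Tomm40 (-0.52 ± 0.06) and the inner membrane translocase subunit Timm50 (-0.51 ± 0.07). Assembly factors had 7 of 44 lower (15.9%), under the share of all genes, with Ndufaf4, Ndufaf2 and Atpaf2 at log2 fold changes of -0.45, -0.44 and -0.33. Of electron carriers and ubiquinone synthesis genes 8 of 20 fell (40%) and 1 rose. Among those that fell was cytochrome c1 (Cyc1, -0.35 ± 0.05), a complex III subunit that the symbol pattern leaves out. In the citric acid cycle list 9 of 27 fell (33.3%), among them Idh3a (-0.44 ± 0.05) and Mdh2 (-0.26 ± 0.04), while the pyruvate dehydrogenase kinase Pdk2, which restrains entry into the cycle, rose (1.17 ± 0.20). Cytosolic ribosomal protein genes, short transcripts with no part in respiration, had 38 of 76 lower (50%; median log2 fold change -0.21).

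Regulators in K-Luc gave 5 lower (21.7%) and 2 higher (8.70%) of 23, so that the share lower was near that of all genes. Tfam, which packages and transcribes mitochondrial DNA, had 51.7, 54.3 and 51.2 CPM in SWNT/CpG cells against 63.2 and 72.0 CPM in untreated cells (log2 fold change -0.37 ± 0.07, adjusted p = 0.000550). Nrf1 had 38.4, 39.9 and 41.4 CPM against 46.9 and 50.6 CPM (-0.30 ± 0.07, adjusted p = 0.00167). For neither gene did the groups overlap. The coactivators Ppargc1a, Ppargc1b and Pprc1 and the receptor Esrra did not pass (log2 fold changes 0.51, -0.25, -0.15 and 0.04). Of the mitophagy and dynamics list 3 of 14 rose (21.4%, near the share of all genes) and 0 fell; the 3 were Pink1 (0.61 ± 0.08), Sqstm1 (0.45 ± 0.08) and Optn (0.42 ± 0.12), known from the removal of damaged mitochondria. Of the glycolysis genes 5 of 19 fell (26.3%) and 0 rose, with Ldha at -0.41 ± 0.05 and Pkm at -0.32 ± 0.04. Relative length was taken for the ribosomal lists only, with medians of 0.361 for mitochondrial and 0.229 for cytosolic ribosomal protein genes in K-Luc, and its part in their counts was not tested.

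In RAW-Blue macrophages SWNT/CpG raised 1 member and lowered 12 of the 78 tested. The riser was Cox6a2, the isoform of complex IV subunit 6A known from heart and skeletal muscle. Those that fell were led by Ndufv3, Ndufb10 and Uqcrh and included Sdha. The share lower was 15.4%, where 10.4% of all tested genes were called lower and 12.8% higher. The members' median log2 fold change was -0.19, against 0.00 over all genes. The count was 2 without SWNT/CpG replicate 1 and 5 without replicate 2, and 2 where only these 2 groups entered the fit.

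Cox6a2 had 7.14 and 6.04 CPM in SWNT/CpG cells, 1.98 and 2.66 CPM in CpG+SWNT/LP cells, 1.62 and 3.27 CPM in CpG cells, 0.991 and 1.58 CPM in SWNT/LP cells and 1.12 and 1.26 CPM in untreated cells. Only the SWNT/CpG libraries stood clear of all others. These levels rest on 123 and 120 counts in SWNT/CpG cells and 19 and 24 counts in untreated cells. The log2 fold change was 2.47 ± 0.33 (adjusted p = 0.000642), or 5.53-fold, and for CpG+SWNT/LP and CpG against untreated it was 0.97 and 1.05 without passing (adjusted p = 0.0978 and 0.104). Against CpG+SWNT/LP, SWNT/CpG had a 2.82-fold higher level, which missed the threshold (adjusted p = 0.0527). Cox6a1, the general isoform, did not pass (log2 fold change -0.24 ± 0.10, adjusted p = 0.121), and in K-Luc Cox6a2 stayed between 0.218 and 0.740 CPM in all groups.

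On chromosome 7 Cox6a2 neighbours the integrin genes Itgad, Itgax and Itgam in the RefSeq gene order. Itgam, a macrophage marker, had 1063 and 1018 CPM in SWNT/CpG cells against 453 and 526 CPM in untreated RAW-Blue cells (adjusted p = 0.000214). Whether reads of neighbouring genes contributed to the Cox6a2 counts was not tested, and Itgam in K-Luc was at most 0.139 CPM.

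**Figure D4:**
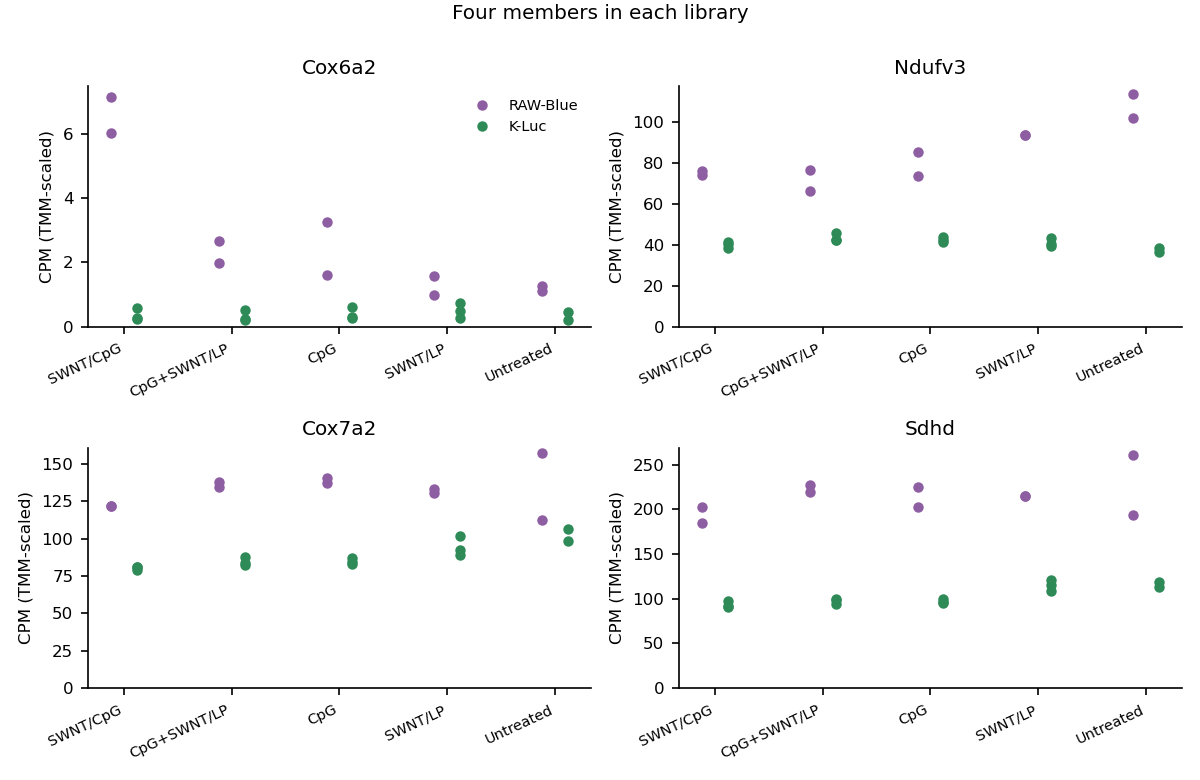
CPM (vertical axis) of Cox6a2, Ndufv3, Cox7a2 and Sdhd in each library, by group (horizontal axis), with RAW-Blue left of K-Luc; points are libraries. Cox6a2 is at 7.14 and 6.04 CPM in RAW-Blue SWNT/CpG cells and at 3.27 CPM or less in every other library, and Ndufv3 is lower in all RAW-Blue groups given CpG-28.

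Ndufv3 had 74.3 and 76.1 CPM in RAW-Blue SWNT/CpG cells, 66.3 and 76.7 CPM in CpG+SWNT/LP cells, 73.6 and 85.5 CPM in CpG cells, 93.5 and 93.9 CPM in SWNT/LP cells and 114 and 102 CPM in untreated cells. The 3 groups with CpG-28 lay below all SWNT/LP and untreated libraries. Its log2 fold change against untreated cells was -0.51 ± 0.09 for SWNT/CpG (adjusted p = 0.00381), -0.58 ± 0.09 for CpG+SWNT/LP (adjusted p = 0.00258) and -0.42 ± 0.09 for CpG (adjusted p = 0.0207). It was also the 1 member lower in CpG+SWNT/LP against SWNT/LP (-0.39 ± 0.09, adjusted p = 0.0440), where 2.37% of all genes were called lower and 2.45% higher.

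Sdha had 314 and 322 CPM in SWNT/CpG cells against 428 and 384 CPM in untreated RAW-Blue cells (log2 fold change -0.34 ± 0.06, adjusted p = 0.00477). The 3 other succinate dehydrogenase genes did not pass, at log2 fold changes of -0.13 for Sdhb, -0.14 for Sdhc and -0.21 for Sdhd. Ndufb10, of the membrane arm of complex I, had 58.1 and 60.4 CPM against 92.0 and 70.4 CPM (log2 fold change -0.44 ± 0.10, adjusted p = 0.0132). Uqcrh had 124 and 136 CPM against 193 and 153 CPM (-0.40 ± 0.10, adjusted p = 0.0146). For all 3 called genes the groups did not overlap, but the untreated libraries of Ndufb10 and Uqcrh were far apart.

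The remaining falls were Ndufb11, Ndufs7, Ndufa10 and Ndufv2 of complex I, Cox8a of complex IV, and Atp5sl, Atp5j2 and Atp5o, with log2 fold changes of -0.24 to -0.39. Atp5sl is now known as an assembly factor of complex I. The catalytic Atp5b and Atp5a1 did not pass (-0.12 and -0.29). In CpG+SWNT/LP cells 6 members fell and 0 rose (10.1% of all genes each way, member median -0.17). In CpG cells 2 fell and 0 rose (5.6% of all genes lower, 5.18% higher, member median -0.11). In SWNT/LP cells 0 were called (0.0434% of all genes lower, 0.434% higher, member median -0.14). There 7 of 78 members had an unadjusted p under 0.05 by edgeR, as did 1463 of 11514 genes, and DESeq2 called 0 members. Most of the CpG+SWNT/LP calls were lost when either library of that group was left out. The CpG calls, Ndufa6 and Ndufv3, were both lost without CpG replicate 1, and not both were kept without replicate 2. SWNT/CpG against CpG+SWNT/LP had 0 members called by edgeR, where 0.356% of all genes were lower and 0.469% higher. By edgeR 5 of 78 members had an unadjusted p under 0.05, as did 1632 of 11514 genes. DESeq2 called 1 member, as higher.

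How far the macrophage subunits fell depended on which untreated library was used. Against untreated replicate 1 alone, 71 of 78 members had a negative log2 fold change in SWNT/CpG cells (median -0.35, all tested genes 0.02). With all tested genes in parentheses, the medians were -0.31 in CpG+SWNT/LP (0.006), -0.26 in CpG (-0.002) and -0.27 in SWNT/LP (0.006). Against untreated replicate 2 alone, 47 members had a negative log2 fold change in SWNT/CpG cells (median -0.02, all tested genes -0.0003). The other medians were 0.01 in CpG+SWNT/LP (-0.0006), 0.06 in CpG (0.004) and 0.02 in SWNT/LP (0.0005). The direction of the median thus turned with the library in all treatments but SWNT/CpG. For calls made where 1 library stands for the group, its spread is assumed to be that of the other groups. With the length trend also removed, the SWNT/CpG median was -0.167 against replicate 1 (all tested genes 0.0106) and -0.0502 against replicate 2 (0.0062).

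**Figure D5:**
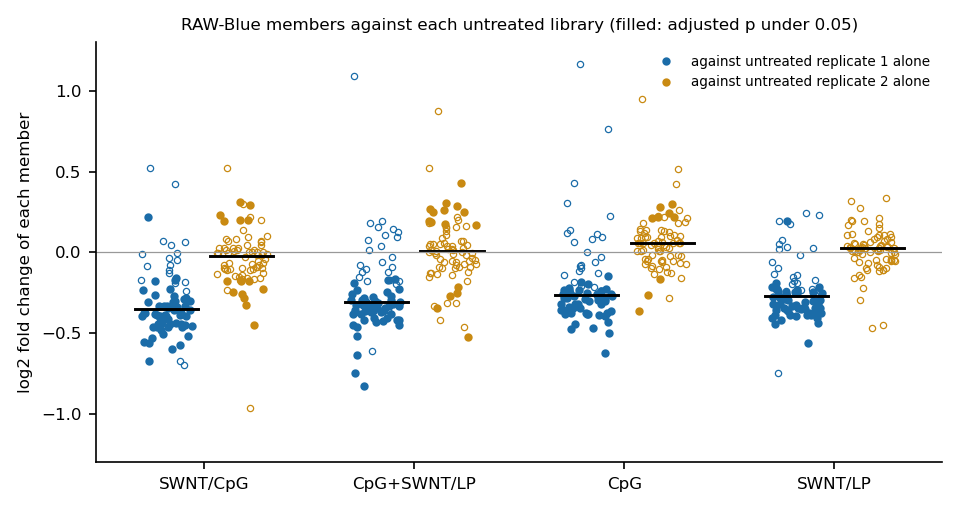
Log2 fold change of each oxidative phosphorylation gene in the 4 RAW-Blue treatments (horizontal axis) against untreated replicate 1 alone and untreated replicate 2 alone (vertical axis); each point is 1 gene and bars are medians. Medians run from -0.26 to -0.35 against replicate 1 and from -0.02 to 0.06 against replicate 2; Cox6a2 in SWNT/CpG lies above the axis, which ends at ±1.3.

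Called in the same direction against each untreated library in SWNT/CpG cells were 9 lower (Atp5sl, Cox8a, Ndufa10, Ndufb10, Ndufb11, Ndufv2, Ndufv3, Sdha and Uqcrh) and 2 higher (Cox6a2 and Ndufs4), and 3 members were called in opposite directions. The share of all tested genes called alike was not counted. Both comparisons use the same treated libraries, so their agreement is partly built in. Cox6a2 had log2 fold changes of 2.58 against replicate 1 and 2.37 against replicate 2, Ndufv3 of -0.56 and -0.45, and Sdha of -0.39 and -0.28. Ndufs4, an accessory subunit of complex I, had 54.5 and 53.8 CPM in SWNT/CpG cells against 47.7 and 45.9 CPM in untreated cells; with both untreated libraries it missed the threshold (log2 fold change 0.22 ± 0.08, adjusted p = 0.0643). In CpG+SWNT/LP 5 were lower against each (Atp5sl, Cox7a2l, Ndufa6, Ndufv3 and Sdha), in CpG 3 (Ndufa6, Ndufv3 and Sdha) and in SWNT/LP 0. Members called in opposite directions against the 2 libraries numbered 5 in CpG+SWNT/LP, 4 in CpG and 0 in SWNT/LP.

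In RAW-Blue cells under SWNT/CpG, the lists are read beside the 10.4% of all tested genes called lower and the 12.8% called higher. The lists outside the members were not set against each untreated library alone. Relative to their mean, untreated replicates 1 and 2 had mitochondrial ribosomal protein genes at 0.116 and -0.116 log2. Of 75 mitochondrial ribosomal protein genes 4 fell (5.33%) and 3 rose (4%). Of 31 import and chaperone genes 1 fell (3.23%) and 2 rose (6.45%), Hspa9 (log2 fold change 0.35 ± 0.06) among them. Of 44 assembly factors 3 fell (6.82%) and 2 rose (4.55%), so that all 3 lists lay under the shares of all genes in both directions. Cox17, the copper chaperone of complex IV, had 61.2 and 63.8 CPM in SWNT/CpG cells against 44.2 and 39.2 CPM in untreated cells (0.60 ± 0.08, adjusted p = 0.000482). Of 27 citric acid cycle genes 8 fell (29.6%) and 1 rose (3.70%), with Idh2 at -0.53 ± 0.09 and Idh3g at -0.41 ± 0.08. Ubiquinone genes moved both ways: 3 of 20 fell (15%), led by Adck3 (-1.47 ± 0.26), and 2 rose (10%), among them Coq10b (0.63 ± 0.14). Cytosolic ribosomal protein genes had 10 of 77 lower (13%; median -0.16) and 0 higher.

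Of 7 genes of macrophage immunometabolism 2 rose (28.6%) and 1 fell (14.3%). Nos2, which makes nitric oxide, had 158 and 145 CPM in SWNT/CpG cells against 3.83 and 3.94 CPM in untreated cells (log2 fold change 5.29 ± 0.19). Irg1, which makes itaconate, an inhibitor of succinate dehydrogenase, had 747 and 532 CPM against 48.7 and 54.2 CPM (3.65 ± 0.22). No library of either gene overlapped the untreated range. Among 21 regulators, with 9.52% higher and 4.76% lower, Myc (3.11 ± 0.16) and Hif1a (0.65 ± 0.17) rose and the mitochondrial RNA polymerase Polrmt fell (-0.37 ± 0.10), while Tfam and Nrf1 did not pass (0.11 and -0.17). Of 15 mitophagy and dynamics genes 3 fell (20%), among them Pink1 (-0.53 ± 0.11) and Bnip3l (-0.51 ± 0.11), and Sqstm1 rose (1.02 ± 0.13). Of 19 glycolysis genes 6 fell (31.6%) and 0 rose, led by Pfkm (-0.86 ± 0.08).

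Untreated macrophages carried more subunit transcript than untreated glioma cells. In RAW-Blue against K-Luc, 55 of 79 members were higher and 7 lower, where 37% of all tested genes were called higher and 40.9% lower; the median member log2 fold change was 0.46, against -0.05 over all genes. All 4 complex II genes were higher, as were 6 of 8 in complex III, 11 of 14 in complex IV, 11 of 17 in the ATP synthase and 23 of 36 in complex I. All RAW-Blue libraries are of run 2 and of a longer treatment, so line cannot be told apart from time. The median member log2 fold change was 0.197 without untreated RAW-Blue replicate 1 (all tested genes -0.0964) and 0.598 without replicate 2 (-0.101).

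Ndufv3 had 114 and 102 CPM in untreated RAW-Blue against 38.6 and 36.5 CPM in untreated K-Luc (log2 fold change 1.56 ± 0.09), and Ndufs8, a core iron-sulfur subunit of complex I, 233 and 154 CPM against 63.6 and 72.8 CPM (1.44 ± 0.13). The core proteins of complex III were higher as well: Uqcrc2 had 306 and 258 CPM against 114 and 123 CPM (2.30-fold). None of these overlapped between the lines. Among isoforms, Cox7a1, known from heart and muscle, had 3.18 and 2.15 CPM against 0.299 and 0.751 CPM (2.13 ± 0.41), and Cox4i2, the lung isoform of subunit 4, had 25 and 22 counts against 0 and 1. In the other direction, Ndufa7 and Ndufa12 had log2 fold changes of -0.64 ± 0.08 and -0.56 ± 0.11, Ndufa4 of -0.28 ± 0.07 and Atp5s of -0.65 ± 0.16. Atp5g1, whose counts are uncertain, had 0.707 and 0.998 CPM against 1.65 and 2.52 CPM.

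Whether SWNT/CpG acted differently on the 2 lines was tested as the difference of their responses, RAW-Blue minus K-Luc. Of 79 members 3 were higher and 3 lower, where 14.4% and 11.1% of all genes were called; the median member difference was -0.02 log2, against 0.04 over all genes. Cox6a2 (2.17 ± 0.76, adjusted p = 0.0387), Atp5f1, the b subunit of the ATP synthase stalk (0.41 ± 0.10, adjusted p = 0.00485), and Ndufs4 (0.39 ± 0.10, adjusted p = 0.00730) had the higher response in RAW-Blue. Ndufv3 (-0.63 ± 0.11, adjusted p = 0.000262), Atp5sl (-0.48 ± 0.17, adjusted p = 0.0342) and Sdha (-0.22 ± 0.08, adjusted p = 0.0422) had the lower one. Atp5f1 is among the members with uncertain counts. With a scaling by DESeq2's size factors 3 were higher and 8 lower, as calls over all genes turned from 1916 higher and 1476 lower to 1531 and 1904. The median member difference was 0.144 log2 without untreated RAW-Blue replicate 1 (all tested genes 0.058) and -0.234 without replicate 2 (0.00718). Without untreated RAW-Blue replicate 1 the count was 17 higher and 1 lower, without replicate 2 it was 3 higher and 31 lower, and Atp5f1 and Ndufs4 (higher) and Ndufv3 (lower) were called either way. It fell to 3 without K-Luc untreated replicate 1, K-Luc SWNT/CpG replicate 3 or RAW-Blue SWNT/CpG replicate 1, and to 2 without K-Luc untreated replicate 2.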

How the data were processed

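Poly(A) RNA of 24 libraries was sequenced with a stranded kit, per the labels' protocols. Per the submitters' processing notes the tools were TopHat2 2.0.14 and HTSeq 0.6.0 on mm9; the sources used here give neither annotation nor strand setting. The deposited read counts are raw, and the deposited RPKM values are the authors', rounded to 1 decimal; RPKM served for levels between genes and, at 1 or more, for relative transcript lengths.

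The test was that of edgeR 4.0.16 under R 4.3.3 (TMM, filterByExpr with minimum count 10 and total 15, robust quasi-likelihood F test, Benjamini-Hochberg adjustment over the whole table, threshold 0.05). K-Luc was fitted with group and run (12420 genes, 8 residual degrees of freedom), RAW-Blue with group (11514 genes, 5) and both lines together with group and run (13350 genes, 13). Of the 84 members 78, 78 and 79 passed the filter; Cox6b2, Cox7b2, Cox8b, Cox8c and Ndufa4l2 were too low in both lines, Cox4i2 in K-Luc and Cox7c in RAW-Blue. CPM use 1 TMM scale over all 24 libraries. Standard errors (SE) are the fold change over the root of F. Relative length came from counts and RPKM and exists for 89.6% (K-Luc) and 92.0% (RAW-Blue) of tested genes and all tested members; its trend was a loess of span 0.5. Alternatives used DESeq2 1.42.0, its size factors, no filter, other designs, a narrower member list and single libraries left out. The members, lists and tests were chosen with earlier results of these data known, and CpG+SWNT/LP against SWNT/LP was added after the data were seen. Genes are named by rule: the 2 largest called rises and falls per complex at a mean log2 CPM of at least 1, fixed isoform, core and regulator genes, and up to 3 genes of each other list; members outside it, such as Ndufa10, Ndufb11, Ndufv2 and Atp5o, were named after their values were seen, to complete a count or to mark uncertain counting. Gene order, promoters and copies came from RefSeq (GRCm38.p6) and GENCODE M21 with BLAST+ 2.17.0; the NRF1 and YY1 letters are shortened forms, set after matches of longer forms had been counted. All columns of the table were matched to labels by title.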

Additional observations from a re-analysis of the deposited data

Results flagged for a closer look

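The response to SWNT/CpG differed between the lines, RAW-Blue minus K-Luc, for 6 members by edgeR's test of the difference itself. On the log2 scale the difference was 2.17 for Cox6a2, 0.413 for Atp5f1, 0.39 for Ndufs4, -0.629 for Ndufv3, -0.484 for Atp5sl and -0.222 for Sdha. Treatment lasted longer in RAW-Blue than in K-Luc, so line and time cannot be told apart. The counts of Atp5f1 are uncertain, since it has near-identical copies. Atp5f1, Ndufs4 and Ndufv3 were called in the same direction against each untreated RAW-Blue library alone.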

How the results depend on the processing

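For named genes in comparisons where the main fit called them, 1032 values were taken under the alternatives. Of these, 824 kept their direction and their call, and 208 kept their direction but lost the call. Genes not called in the main fit, such as Ndufs4 in RAW-Blue SWNT/CpG, are outside this total, so it cannot show calls that were gained. The median over the RAW-Blue members did turn its sign, against untreated replicate 2 alone, to 0.01 for CpG+SWNT/LP, 0.06 for CpG and 0.02 for SWNT/LP. For counts of members under the alternatives, calls over all genes are not given, except for DESeq2's size factors above. Counts of members called that moved by over 1.5 times are given here by setting. With the length trend removed they were 14 for K-Luc SWNT/CpG against untreated, 12 for CpG+SWNT/LP, 11 for CpG, 1 for RAW-Blue SWNT/CpG against CpG+SWNT/LP and 14 for the difference between the lines. Without a run term K-Luc SWNT/CpG gave 24, CpG 8 and SWNT/CpG against CpG+SWNT/LP 0. In run 2 alone, SWNT/CpG gave 19, CpG+SWNT/LP 8, CpG 13, SWNT/CpG against CpG+SWNT/LP 0 and the difference between the lines 2. With only the compared groups, K-Luc CpG gave 6, SWNT/CpG against CpG+SWNT/LP 7 and CpG+SWNT/LP against SWNT/LP 1; in RAW-Blue SWNT/CpG gave 2, CpG+SWNT/LP 0, CpG 0, SWNT/CpG against CpG+SWNT/LP 4 and CpG+SWNT/LP against SWNT/LP 5. DESeq2 gave 1 for RAW-Blue CpG and 1 for SWNT/CpG against CpG+SWNT/LP, no filter on low counts 1 for that same comparison, and DESeq2's size factors in edgeR 11 for the difference between the lines. The causes of these moves were not tested, beyond fewer samples or residual degrees of freedom where groups or runs were left out.

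Replicate numbers were not used as pairs in the main fit. In K-Luc, same-numbered deviations correlated over 0.1 in 20 of 26 pairs, against 6 of 52 pairs of different number. In RAW-Blue it was 4 of 20 against 0 of 20. Each of the 14 K-Luc and 10 RAW-Blue libraries correlated best with its own number on average. With 2 libraries per RAW-Blue group the deviations mirror each other, so those pairs and libraries are not independent. Whether same-numbered libraries belong together was not settled. With the replicate block, counts were 46 for K-Luc SWNT/CpG, 4 for K-Luc SWNT/CpG against CpG+SWNT/LP, 24 for CpG+SWNT/LP against SWNT/LP, 1 for RAW-Blue CpG and 1 for RAW-Blue SWNT/CpG against CpG+SWNT/LP.

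Leaving out 1 library at a time gave, in K-Luc, 12 to 29 calls for SWNT/CpG, 5 to 21 for CpG+SWNT/LP, 4 to 22 for CpG, 0 for SWNT/LP, 0 to 1 for SWNT/CpG against CpG+SWNT/LP and 4 to 20 for CpG+SWNT/LP against SWNT/LP. In RAW-Blue it gave 2 to 59, 1 to 53, 1 to 52 and 0 to 52 for SWNT/CpG, CpG+SWNT/LP, CpG and SWNT/LP, and 0 for both comparisons between treatments. The lines gave 50 to 64 and the difference of responses 2 to 34. With the length trend also removed (added after the data were seen), leaving out untreated RAW-Blue replicate 1 gave 12 calls for CpG+SWNT/LP and 8 for CpG, and leaving out replicate 2 gave 38, 34, 29 and 20 for the 4 treatments. Members with few counts, such as Cox6a2 in untreated RAW-Blue cells at 19 and 24 counts, are limited by counting error.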
